A study of Mus musculus with 6 samples.

Results

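The 35 genes described here make, move, store and export cholesterol, or make the fatty acids that are regulated beside it. They are listed by symbol, with no threshold on a measured value. The list holds 16 enzymes of cholesterol synthesis, 5 genes that control the SREBP transcription factors, 5 genes of cholesterol efflux and the liver X receptors (LXR), 5 genes of storage, trafficking and oxysterol synthesis, and 4 genes of fatty acid synthesis. Of the 35, 31 have a probe set with 1 gene symbol, and all 31 were among the 7507 genes tested. Acat2, Insig1, Nr1h2 and Soat1 have no probe set in the annotation used and were not analysed here.

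RNA came from bone marrow-derived macrophages of C57BL/6J mice, with 1 Affymetrix Mouse Genome 430A 2.0 array for each of 6 conditions. The cells lacked IκBβ (labelled IkB, described in the series text as an IκBβ knockout) or were wild type, and both genotypes were sampled at 0, 1 and 5 h of 1 µg/ml LPS, the bacterial lipopolysaccharide that activates Toll-like receptor signalling. IκBβ, encoded by Nfkbib, binds and regulates NF-κB. Cells of every condition had been differentiated for 7 days in medium with 30% supernatant of L929 cells, which supplies the macrophage growth factor. The sources used here do not give the age and sex of the mice, how the allele was made, or whether any arrays came from the same animal.

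Cells make cholesterol from acetyl-CoA through mevalonate, squalene and lanosterol. When membrane cholesterol is low, SCAP carries SREBP-2 out of the endoplasmic reticulum and the cleaved factor switches on most enzymes of this route; INSIG proteins and oxysterols hold it back. When sterols are abundant, oxysterols activate LXR, which in macrophages switches on the exporters ABCA1 and ABCG1 and the ubiquitin ligase MYLIP, while the related factor SREBP-1 drives fatty acid synthesis.

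Promoter sequence was looked at first, because SREBPs and the factors that work beside them bind close to the start of their target genes. RefSeq windows of 300 bases (250 before and 50 after the start, GRCm38.p6) were available for 23 of the 31 measured genes. The sequences that follow belong to 3 genes called higher at 5 h of LPS (Hmgcs1, Idi1 and Srebf2) and 2 called lower (Ebp and Abca1). The call of Srebf2 rests on 1 probe set, as a second probe set was lower at 5 h. All sequences run 5′ to 3′ on the strand of the gene. Capitals mark CACCCCAC, the core of a sterol regulatory element, and CCAAT, each on either strand, so that CCAAT on the opposite strand reads ATTGG.
Hmgcs1, chr13:119690101-119690400, plus strand: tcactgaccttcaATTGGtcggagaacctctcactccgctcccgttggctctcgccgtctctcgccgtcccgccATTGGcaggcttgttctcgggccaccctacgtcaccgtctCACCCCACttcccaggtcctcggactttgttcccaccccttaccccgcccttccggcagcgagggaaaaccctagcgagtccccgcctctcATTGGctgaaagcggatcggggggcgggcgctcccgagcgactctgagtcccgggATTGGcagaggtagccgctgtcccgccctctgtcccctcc
Idi1, chr13:8885356-8885655, plus strand: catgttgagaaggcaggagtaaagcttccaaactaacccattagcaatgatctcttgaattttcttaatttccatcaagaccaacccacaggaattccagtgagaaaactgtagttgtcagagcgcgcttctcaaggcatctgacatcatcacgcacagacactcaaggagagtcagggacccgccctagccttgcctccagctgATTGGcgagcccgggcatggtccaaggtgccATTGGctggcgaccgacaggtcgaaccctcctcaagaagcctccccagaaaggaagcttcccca
Srebf2, chr15:82147019-82147318, plus strand: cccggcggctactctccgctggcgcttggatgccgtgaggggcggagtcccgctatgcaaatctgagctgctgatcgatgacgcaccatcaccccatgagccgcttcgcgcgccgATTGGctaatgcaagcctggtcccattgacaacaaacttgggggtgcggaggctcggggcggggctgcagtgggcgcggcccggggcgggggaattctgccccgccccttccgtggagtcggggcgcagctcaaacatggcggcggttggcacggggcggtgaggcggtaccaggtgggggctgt
Ebp, chrX:8193463-8193762, minus strand: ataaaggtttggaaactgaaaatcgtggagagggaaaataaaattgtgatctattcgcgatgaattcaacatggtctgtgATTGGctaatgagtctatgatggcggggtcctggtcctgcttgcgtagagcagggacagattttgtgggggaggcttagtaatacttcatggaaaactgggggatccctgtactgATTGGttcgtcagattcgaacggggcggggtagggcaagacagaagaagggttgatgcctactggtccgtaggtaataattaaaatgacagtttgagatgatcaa
Abca1, chr4:53159846-53160145, minus strand: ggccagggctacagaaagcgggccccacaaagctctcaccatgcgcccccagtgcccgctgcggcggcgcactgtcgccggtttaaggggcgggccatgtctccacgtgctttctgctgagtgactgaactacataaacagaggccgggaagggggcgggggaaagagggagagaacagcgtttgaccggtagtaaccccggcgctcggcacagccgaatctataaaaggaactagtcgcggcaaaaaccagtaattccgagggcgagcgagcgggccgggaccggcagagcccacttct

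CACCCCAC was found in 1 of the 23 genes, Hmgcs1, where it begins 136 bases before the start, and in 3.88% of the 6190 tested genes that have a window (2.87% of all 32851 windows). CCAAT was present in 19 of the 23 (82.6%), among them all 12 synthesis genes with a window, against 43% of tested genes and 37.4% of all windows. Among genes called at 5 h, it was present in 4 of 5 called higher and 11 of 13 called lower, so genes of either call carried it. The 4 include Srebf2, whose second probe set was lower. Abca1 had neither motif. GGGCGG, the GC box, occurred in 19 of the 23 (82.6%) against 70.4% of tested genes, and CACGTG, the E-box, in 4 of the 23 (17.4%) against 12.5%. Both strands were searched for each motif, and a gene with several windows was counted once. A match describes these letters only.

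The arrays were checked against their labels. Nfkbib gave signals of 30.5, 136 and 56.1 on the knockout arrays, against 477, 3330 and 5007 on the wild-type arrays (0, 1 and 5 h). Xist read 5634, 4189 and 2149 on knockout arrays, against 52.1, 80.4 and 62.1 on wild-type arrays. The Y-linked gene Eif2s3y read 3.27, 0.896 and 10.7 on knockout arrays, against 799, 860 and 570 on wild-type arrays. Genotype and sex can therefore not be told apart in any difference given here. All 8 macrophage markers exceeded the array median, with summed signals of 76120 to 85959 on knockout arrays and 83189 to 91380 on wild-type arrays, while 0 of 5 T and NK cell, 0 of 4 hepatocyte and 0 of 2 erythroid markers did. Of other markers, 1 of 4 neutrophil, 1 of 5 fibroblast and 1 of 4 dendritic cell genes did on at least 1 array: Camp (14.6 to 88.6 on knockout and 29.7 to 92.9 on wild-type arrays), Dcn (14.0 to 99.1 on knockout and 30.8 to 58.2 on wild-type arrays) and Itgax (260 to 430 on knockout and 467 to 560 on wild-type arrays). Of 4 B cell markers 2 did, and both were lower at each later time: Ighm, with 3571, 2563 and 304 in knockout cells and 3371, 2308 and 268 in wild-type cells, and Cd79b, with 111, 84.7 and 30.4 in knockout cells and 119, 89.1 and 24.9 in wild-type cells. The other 2, Cd79a and Ms4a1, stayed between 3.17 and 45.3. The part of Ighm-bearing cells in the results was not tested.

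At 5 h of LPS the enzymes of cholesterol synthesis moved in both directions, the exporters and Mylip fell, the fatty acid genes fell, and Ch25h rose more than any other of the 31 genes. Changes are log2 differences from limma's fit over all 6 arrays, with the standard error (SE) in brackets. Genotype and time are additive terms in that fit, which leaves 2 residual degrees of freedom. The 2 arrays of each time differ in genotype and sex. The residual of a gene therefore holds any difference in LPS response between the genotypes, together with array noise. Each SE also borrows from the scatter of other genes (prior degrees of freedom 2.181). An SE is thus neither the scatter of replicate arrays nor the spread between animals. Genes were called where the p-value, adjusted over all 7507 genes by Benjamini-Hochberg, was under 0.05. In a bulk sample, fewer cells of a type and less RNA per cell cannot be told apart.

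Of the 31 genes, 6 were called higher at 5 h (19.4%) and 19 lower (61.3%). Over all genes tested, 19.5% were called higher and 54% lower, so both shares lie near the background. The median change was −0.82 for the 31 genes and −0.57 for all genes. Array medians at the deposited scaling were 117, 98.7 and 65.2 at 0, 1 and 5 h in knockout cells and 114, 105 and 70.7 in wild-type cells, so results under 2 other scalings are given where a direction changes. Quantile normalization put the median of all genes at −0.22, and centring each array on its median put it at 0.19. Without the wild-type array at 0 h, 8 of the 25 calls missed the threshold: Pmvk, Fdft1, Sqle, Cyp51, Tm7sf2, Nsdhl, Scap and Insig2. The 31 genes have 60 probe sets, and of the 12 genes with 2 or more past the filter on dim signals, 10 had all of these on the same side of 0 at 5 h.

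**Figure D1:**
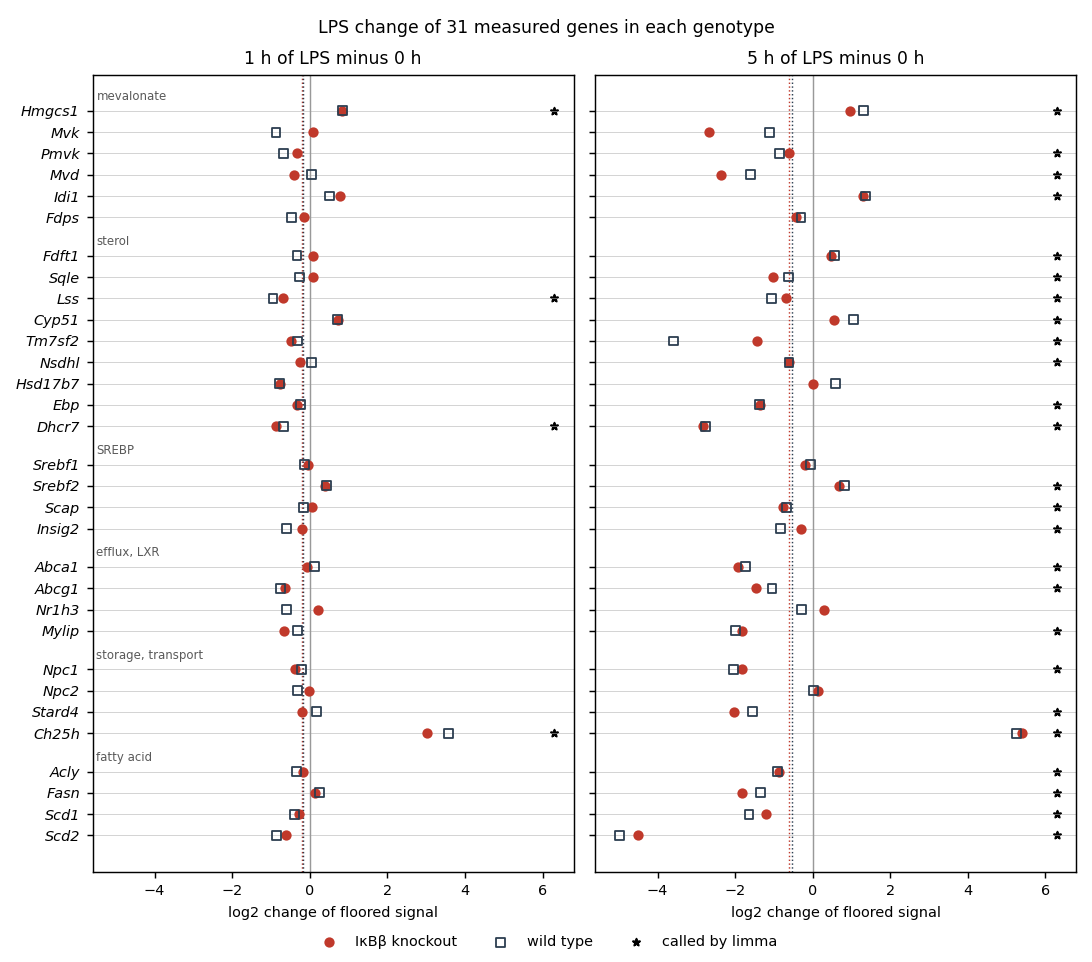
The log2 change after 1 h (left) and 5 h (right) of LPS is plotted for the 31 measured genes, grouped by role, with filled circles for knockout cells and open squares for wild-type cells, 1 array per time. Dotted lines mark the median of all genes in each genotype and stars mark genes called by limma. At 5 h, Ch25h lies far to the right and Scd2 far to the left in both genotypes.

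In the early, mevalonate part of the route, the HMG-CoA synthase and isomerase steps rose while the decarboxylase step fell. Hmgcs1, which makes HMG-CoA, read 1246, 2208 and 2417 at 0, 1 and 5 h in knockout cells and 1177, 2115 and 2946 in wild-type cells. Both 5 h arrays lay above both 0 h arrays, and the rise at 5 h was 1.14 (SE 0.14, adjusted p = 0.00285), a 2.20-fold increase. All 4 Hmgcs1 probe sets were higher at 5 h, by 0.92 to 1.27.

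Idi1, the isopentenyl diphosphate isomerase, read 333, 567 and 817 in knockout cells and 402, 569 and 1033 in wild-type cells. Its signal was higher at each later time in both genotypes, and the 5 h rise was 1.33 (SE 0.13, adjusted p = 0.00157). The other Idi1 probe set gave 1.97.

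Mvd, the mevalonate diphosphate decarboxylase that acts just before Idi1, read 202, 152 and 39.4 in knockout cells and 167, 173 and 55.0 in wild-type cells. It fell by 1.98 at 5 h (SE 0.21, adjusted p = 0.0019), a 3.94-fold decrease, with both 5 h arrays below all others. Its other probe set gave −2.83, a bound, as its wild-type signal at 5 h (15.7) lies under the floor described below. Pmvk, the phosphomevalonate kinase, was lower at the deposited scaling, with a change of −0.74 (SE 0.13, adjusted p = 0.00793), but stood at 0.00 after quantile normalization and 0.02 after median centring. Mvk, the mevalonate kinase, read 117, 124 and 6.16 in knockout cells and 159, 87.1 and 73.3 in wild-type cells. Its 5 h value in knockout cells lies under the floor of 18.3 to which low signals were raised, and its change of −1.90 (SE 0.63, adjusted p = 0.0503) did not pass the test. Fdps, which makes farnesyl diphosphate, had a change of −0.36 (SE 0.15, adjusted p = 0.0934), but stood at 0.15 after quantile normalization and 0.40 after median centring, with no call in either. Of the 6 mevalonate genes 2 were called higher and 2 lower, with a median of −0.55 against −0.57 for all genes. Each share was 33.3%, against 19.5% of all genes called higher and 54% called lower.

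**Figure D2:**
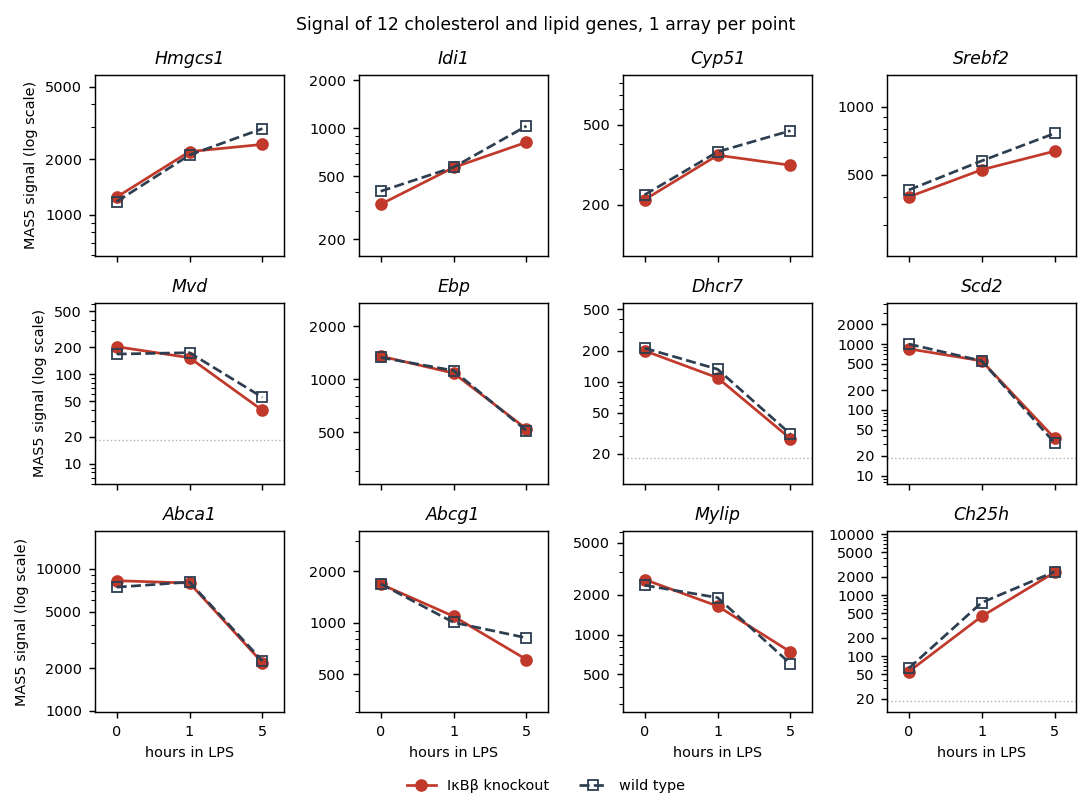
MAS5 signal (log axis) is plotted against hours in LPS for 12 genes, with 1 array per point; filled red circles are knockout cells and open squares wild-type cells, and dotted lines mark the floor where it is in range. The top row shows 4 genes called higher at 5 h; below them, Abca1 is nearly level to 1 h and low at 5 h, and Ch25h is high at 5 h in both genotypes.

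Among the 9 measured enzymes that make squalene from farnesyl diphosphate and turn it into cholesterol, 2 were called higher at 5 h and 6 lower. These are 22.2% and 66.7%, against 19.5% and 54% of all genes. Cyp51, the lanosterol demethylase, read 212, 352 and 314 in knockout cells and 224, 366 and 466 in wild-type cells. All 4 LPS-treated arrays lay above both 0 h arrays, and the change was 0.81 at 5 h (SE 0.17, adjusted p = 0.0142), with adjusted p = 0.0634 when no filter on dim genes was used. Its other probe set past the filter gave 0.35 (0.11 in knockout and 0.58 in wild-type cells), and the mean of its probe sets 0.39 (adjusted p = 0.0486). Fdft1, squalene synthase, read 233, 245 and 325 in knockout cells and 271, 216 and 400 in wild-type cells, a rise of 0.52 (SE 0.16, adjusted p = 0.041). The other Fdft1 probe set that passed the filter on dim signals gave −0.15, so the Fdft1 rise rests on 1 probe set.

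The largest falls among the sterol steps were those of Dhcr7, Tm7sf2 and Ebp. Dhcr7, the reductase that completes cholesterol, read 199, 109 and 28.1 in knockout cells and 211, 132 and 31.1 in wild-type cells. Its signal was lower at each later time in both genotypes, and it fell by 2.79 at 5 h (SE 0.11, adjusted p = 0.000335), a 6.93-fold decrease. Ebp, a sterol isomerase, read 1350, 1081 and 521 in knockout cells and 1327, 1118 and 509 in wild-type cells. The genotypes differed by at most 0.05 in Ebp at any time, and the 5 h change was −1.38 (SE 0.10, adjusted p = 0.000773).

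Tm7sf2, a sterol reductase, read 190, 135 and 70.5 in knockout cells and 235, 188 and 19.7 in wild-type cells. It was lower at 5 h in both, with a change of −2.50 and the largest SE of the 31 genes at 0.64 (adjusted p = 0.0241). After quantile normalization it stood at −1.87 and missed the threshold (adjusted p = 0.0866). Sqle, squalene epoxidase, was lower with a change of −0.82 (SE 0.20, adjusted p = 0.0227), and Lss, lanosterol synthase, with −0.88 (SE 0.14, adjusted p = 0.00548). Those 2 changes came to −0.16 and −0.12 after quantile normalization and did not pass the test there. Nsdhl, a sterol dehydrogenase, was called lower at −0.61 (SE 0.13, adjusted p = 0.0154) but stood at 0.16 after median centring. Hsd17b7, a ketosteroid reductase of the same route, had a change of 0.30 (SE 0.19, adjusted p = 0.232) and was called higher, at 1.03 and 1.06, under the other 2 scalings.

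Across the 15 measured synthesis genes, 4 were called higher and 8 lower at 5 h, with a median of −0.74. These are 26.7% and 53.3%, against 19.5% and 54% of all genes. The list has no single direction. Its median was −0.07 after quantile normalization, with 5 higher and 3 lower (33.3% and 20%, against 26.3% and 40.7% of all genes). After median centring it was 0.02, with 5 higher and 4 lower (33.3% and 26.7%, against 39% and 27.1%). At the deposited scaling and after median centring these shares lie near those of all genes.

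The genes that control SREBP moved less. Srebf2, which encodes SREBP-2, read 400, 527 and 637 in knockout cells and 429, 577 and 763 in wild-type cells. The signal was higher at each later time in both genotypes, and the 5 h rise was 0.75 (SE 0.11, adjusted p = 0.00425). A second Srebf2 probe set went the other way, with 431, 429 and 273 in knockout cells and 450, 472 and 359 in wild-type cells, a mean change of −0.49. The mean of both probe sets gave 0.13 (adjusted p = 0.384), so the direction of Srebf2 depends on the probe set.

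Srebf1, which encodes SREBP-1, had a change of −0.13 (SE 0.11, adjusted p = 0.356), but stood at 0.27 after quantile normalization and was called higher, at 0.63, after median centring (adjusted p = 0.0113). Scap, the escort of SREBP, was called lower at −0.72 (SE 0.13, adjusted p = 0.00778) but stood at 0.05 after median centring. Insig2, which retains SCAP, was called lower at −0.56 (SE 0.17, adjusted p = 0.0398) but stood at 0.20 after median centring. Of the 4 measured control genes 1 was called higher (25%) and 2 lower (50%) at the deposited scaling, against 19.5% and 54% of all genes.

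The exporters were both lower at 5 h. Abca1, which moves cholesterol to apolipoprotein A-I, read 8268, 7952 and 2182 in knockout cells and 7439, 8088 and 2247 in wild-type cells. The 1 h arrays lay within the range of the 0 h arrays, with a change of 0.03 (SE 0.11, adjusted p = 0.857), and both 5 h arrays lay far below. It fell by 1.82 at 5 h (SE 0.11, adjusted p = 0.000545), a 3.54-fold decrease, and its 3 probe sets gave −1.43 to −1.89.

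Abcg1, which exports cholesterol to high-density lipoprotein, read 1687, 1093 and 610 in knockout cells and 1693, 1006 and 817 in wild-type cells. Both 1 h arrays were already below both 0 h arrays, but the 1 h change of −0.69 (SE 0.17, adjusted p = 0.0787) did not pass the test. At 5 h it fell by 1.26 (SE 0.17, adjusted p = 0.00362). Mylip, a ubiquitin ligase that removes lipoprotein receptors, read 2618, 1647 and 740 in knockout cells and 2370, 1909 and 601 in wild-type cells. It fell by 1.90 at 5 h (SE 0.16, adjusted p = 0.00108), with no overlap between times.

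Nr1h3, which encodes LXRα, read 144, 168 and 174 in knockout cells and 161, 107 and 132 in wild-type cells. Its arrays overlapped between times, and the 5 h change was −0.01 (SE 0.23, adjusted p = 0.978). It stood at 0.71 after quantile normalization and 0.76 after median centring, with a call only in the latter. Abca1, Abcg1 and Mylip, 75% of the 4 genes, were called lower at 5 h under all 3 scalings. Of all genes, 54% were called lower at the deposited scaling, 40.7% after quantile normalization and 27.1% after median centring. After median centring Abcg1 stood at −0.50 and passed the test narrowly (adjusted p = 0.049). The median of the 4 genes was −1.54 at the deposited scaling, −1.48 after quantile normalization and −0.78 after median centring.

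Synthesis was set against efflux as a description with no test. At 5 h the median of the 15 synthesis genes minus that of the 4 efflux and LXR genes was 1.03 in knockout cells (−0.62 and −1.65) and 0.77 in wild-type cells (−0.62 and −1.39). In the fit over both genotypes it was 0.80, and 1.41 after quantile normalization. At 1 h the difference was 0.08 in knockout cells and 0.13 in wild-type cells. At 5 h the synthesis median in the fit (−0.74) lay closer to the median of all genes (−0.57) than the efflux median did (−1.54).

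**Figure D3:**
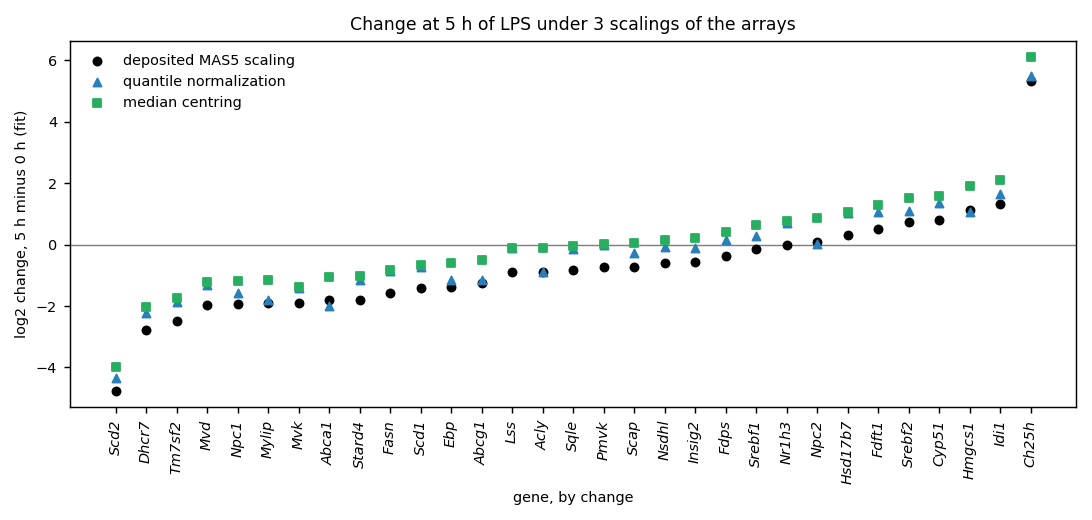
The log2 change at 5 h is plotted for each of the 31 genes under the deposited scaling, quantile normalization and median centring, with the genes along the horizontal axis in order of the deposited change. Abca1, Abcg1, Mylip, Dhcr7, Ebp, Mvd and Scd2 stay below 0 and Hmgcs1, Idi1, Cyp51 and Ch25h above 0 under all 3. Fdps, Pmvk, Nsdhl, Srebf1, Scap, Insig2 and Nr1h3 cross or reach 0.

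Ch25h, which makes the oxysterol that holds SREBP-2 back, had the largest rise of the 31 genes. Its signal was 55.6, 447 and 2352 in knockout cells and 63.0, 752 and 2410 in wild-type cells. The times did not overlap, and the rise was 3.29 at 1 h (SE 0.21, adjusted p = 0.00484) and 5.33 at 5 h (SE 0.21, adjusted p = 0.000335), a 40.2-fold increase.

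Npc1, the membrane protein that exports cholesterol from lysosomes, read 1238, 950 and 347 in knockout cells and 1030, 892 and 252 in wild-type cells. It fell by 1.93 at 5 h (SE 0.13, adjusted p = 0.000686). Its soluble partner Npc2 had 14199, 13963 and 15678 in knockout cells and 17428, 13971 and 17704 in wild-type cells. The times overlapped and the change was 0.08 (SE 0.12, adjusted p = 0.571), although median centring, which moves all genes up, put it at 0.85 with a call.

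Stard4, a cytosolic sterol carrier that is known as an SREBP-2 target, read 470, 408 and 116 in knockout cells and 439, 498 and 148 in wild-type cells. It fell by 1.79 (SE 0.16, adjusted p = 0.00112). Both 5 h arrays lay below the other 4. The other Stard4 probe set past the filter gave a smaller change of −0.54 (−0.98 in knockout and −0.10 in wild-type cells), and the mean of both −1.17 (adjusted p = 0.0048).

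All 4 genes of fatty acid synthesis were called lower at 5 h, against 54% of all genes. Their median was −1.50, against −0.57 for all genes. After median centring 3 of the 4 were called lower (75%, against 27.1% of all genes). Scd2, a stearoyl-CoA desaturase, read 847, 556 and 37.2 in knockout cells and 1002, 556 and 31.6 in wild-type cells. It fell by 4.75 (SE 0.15, adjusted p = 0.00032), a 26.9-fold decrease and the largest fall of the 31 genes. Its other probe set past the filter gave −3.69, a bound, as its knockout signal at 5 h (13.6) lies under the floor. Its relative Scd1 read 118, 97.2 and 51.4 in knockout cells and 134, 102 and 42.9 in wild-type cells, a fall with a change of −1.42 (SE 0.15, adjusted p = 0.00185). Fasn, fatty acid synthase, read 178, 194 and 50.1 in knockout cells and 162, 194 and 63.4 in wild-type cells, with a change of −1.59 (SE 0.16, adjusted p = 0.00154). Acly, which makes cytosolic acetyl-CoA for both routes, had a change of −0.88 (SE 0.11, adjusted p = 0.00268), which came to −0.12 after median centring and did not pass the test there.

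With the requirement of a 2-fold change in each genotype alone, 13 of the 31 genes were lower at 5 h (41.9%), against 30.4% of all genes, and 2 were higher (6.45%), against 10.6%. The 2 higher genes were Idi1 and Ch25h. The 13 lower genes were Mvk, Mvd, Tm7sf2, Dhcr7, Ebp, Abca1, Abcg1, Mylip, Npc1, Stard4, Fasn, Scd1 and Scd2.

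At 1 h, 2 genes were called higher, Hmgcs1 and Ch25h, and 2 lower, Lss and Dhcr7. Each share was 6.45%, against 5.45% of all genes called higher and 5.94% called lower. Hmgcs1 changed by 0.84 (SE 0.14, adjusted p = 0.0398). Lss read 174, 108 and 108 in knockout cells and 199, 103 and 94.9 in wild-type cells; its 1 h change of −0.82 (SE 0.14, adjusted p = 0.0386) was already about that at 5 h. Dhcr7 changed by −0.77 (SE 0.11, adjusted p = 0.0277).

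None of the 1 h calls except that of Ch25h was kept when each array was left out in turn, and without the filter on dim genes, Ch25h missed the threshold too (adjusted p = 0.0578). Cyp51 at 0.72 (adjusted p = 0.075), Idi1 at 0.63 (adjusted p = 0.0579), Scd2 at −0.73 (adjusted p = 0.0593) and Hsd17b7 at −0.78 (adjusted p = 0.0798) did not pass the test at 1 h. The median of the 31 genes was −0.18, as for all genes.

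Between the genotypes, none of the 31 genes was called by limma for a difference shared by the 3 times. Over all genes 0.0133% were called, and at an unadjusted p under 0.05 the numbers were 0 of the 31 and 629 of 7507 (8.38%). The adjusted p values of the 31 ran from 0.599 to 0.996. The lowest belonged to Npc1, which was higher by 0.27 in knockout cells (SE 0.11). A p that misses the threshold does not show that the genotypes were alike.

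At 0 h the knockout array differed from the wild-type array by −0.44 to 0.28 over the 31 genes, with a median of −0.09, against a standard deviation over all genes of 0.35. None reached 2-fold, as did 2.04% of all genes. At 1 h again none did, against 2.97% of all genes. The widest differences at 1 h were −0.75 for Ch25h, which read 447 in knockout cells against 752 in wild-type cells, and 0.66 for Nr1h3, which read 168 against 107.

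At 5 h, 2 of the 31 genes differed by 2-fold or more (6.45%), against 4.86% of all genes. Mvk was lower by at least 2.00 in knockout cells, where it lay under the floor (6.16, against 73.3 in wild-type cells). Tm7sf2 was higher by 1.84 in knockout cells (70.5, against 19.7 in wild-type cells). Both rest on single arrays with low signals and come with no test.

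Among the 15 synthesis genes, 12 lay below 0 at 5 h in knockout minus wild type, with a median of −0.30 against −0.06 for all genes. The share below 0 was 80% for these 15 and 57.6% for all genes. At 0 h 11 of the 15 lay below 0 (73.3%, against 48.8% of all genes). At 1 h 8 of the 15 did (53.3%, against 53.1% of all genes). The knockout change minus the wild-type change at 5 h had a median of −0.08 over the 15 genes and −0.06 over all genes. The rising genes were among the 12 below 0 at 5 h. Cyp51 stood at −0.57 (314 against 466), Idi1 at −0.34 (817 against 1033) and Hmgcs1 at −0.29 (2417 against 2946). The difference of Cyp51 exceeded the standard deviation over all genes (0.48), and those of Idi1 and Hmgcs1 did not. The exporter Abca1 differed by −0.04 and Abcg1 by −0.42.

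**Figure D4:**
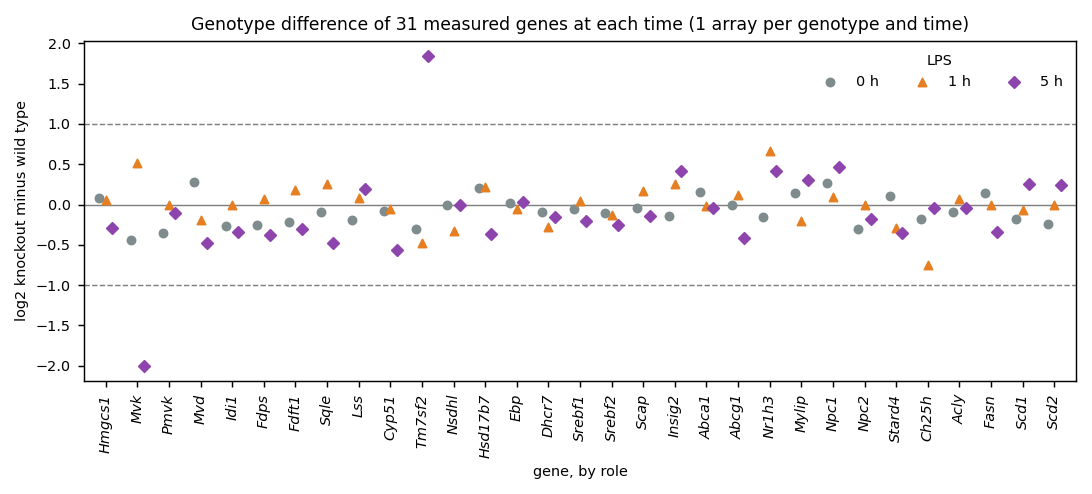
Knockout minus wild type is plotted on the log2 scale for the 31 genes at 0, 1 and 5 h, 1 array per genotype and time, with dashed lines at 2-fold. All points at 0 and 1 h lie between the lines, and at 5 h those of Mvk, a bound, and Tm7sf2 lie outside them.

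The wider lists of the same pathways held 73 genes, 55 of them with a probe set and 47 tested. At 5 h, 8 were called higher, 27 lower and 12 neither, with a median of −0.75. These are 17% and 57.4% of the 47, near the 19.5% and 54% of all genes. Median centring made this 19 higher (40.4%) and 17 lower (36.2%), against 39% and 27.1% of all genes. The lists that follow hold 7 to 12 of these genes each, so their counts describe few genes. At 1 h, 2 were higher and 2 lower (4.26% each), against 5.45% and 5.94% of all genes.

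Of 8 uptake genes tested, 2 were called higher (25%) and 5 lower (62.5%) at 5 h, against 19.5% and 54% of all genes. After median centring 3 went each way (37.5%), against 39% and 27.1% of all genes. Olr1, a receptor for oxidized lipoprotein, read 4.09, 966 and 108 in knockout cells and 1.18, 922 and 112 in wild-type cells; its 0 h values lie under the floor, so its changes of 5.69 at 1 h and 2.59 at 5 h are bounds. Msr1, a scavenger receptor for modified lipoprotein, read 1858, 3348 and 8541 in knockout cells and 1874, 2600 and 8120 in wild-type cells, a rise of 2.16 (SE 0.14, adjusted p = 0.000587). Lrp1, a lipoprotein receptor, fell by 2.65, Scarb1, a receptor for high-density lipoprotein, fell by 1.76, and the lysosomal protein Scarb2 fell by 1.52 (−0.96 in its other probe set). Cd36, a scavenger receptor like Msr1, was called lower at −0.71 (SE 0.13, adjusted p = 0.00964), but stood at 0.06 after median centring. At 0 h, Cd36 stood at −0.55 and Lpl at −0.28 in knockout minus wild type, and Scarb2 and Olr1 at 0.00.

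In the wider efflux, storage and LXR list, 0 of 12 were called higher (0%) and 6 lower (50%) at 5 h. Over all genes these shares were 19.5% and 54%. After median centring 5 were higher (41.7%) and 3 lower (25%), against 39% and 27.1% of all genes. Rxra, the partner of LXR, read 597, 373 and 39.6 in knockout cells and 732, 435 and 11.7 in wild-type cells, a change of −4.62 (SE 0.40, adjusted p = 0.00112) that is a bound in wild type. Its other probe set past the filter gave a smaller change of −1.76 (348, 271 and 132 in knockout cells and 374, 250 and 85.7 in wild-type cells). Rxrb fell by 2.44, and Lipa, the lysosomal acid lipase, fell by 1.30.

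The widest genotype differences at 0 h in that list were those of the apolipoproteins Apoc2, Apoe and Apoc1, the only 3 of the 12 genes past 2-fold. Of all genes 2.04% passed 2-fold at 0 h, and each such difference rests on 1 array per genotype. Apoe, a carrier of lipid out of macrophages, read 4125, 4244 and 3302 in knockout cells, against 16644, 14934 and 14416 in wild-type cells. Apoc2, a cofactor of lipoprotein lipase, read 369, 354 and 214 in knockout cells, against 1766, 1541 and 839 in wild-type cells. Every knockout array lay below every wild-type array for both genes. Apoc1, which the naming rule left out and which was added after its values were seen, read 108, 97.7 and 24.2 in knockout cells, against 267, 179 and 184 in wild-type cells, a difference over the 3 times of −1.70 (SE 0.44, adjusted p = 0.547). For the first 2 apolipoproteins the differences over the 3 times, −1.98 for Apoe (SE 0.10, adjusted p = 0.0746) and −2.12 for Apoc2 (SE 0.10, adjusted p = 0.0743), did not pass the test at the deposited scaling, whereas both were called lower after median centring (adjusted p = 0.0208 for each). Apoe, Apoc1, Apoc2 and Nfkbib all lie on chromosome 7, and the part of that position was not tested. The highest differences in that list were 0.20 for Abcg4 and 0.17 for Rxrb.

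Oxysterol and sterol transport genes also went both ways, with 4 of 10 called higher (40%) and 6 lower (60%) at 5 h. Over all genes the shares were 19.5% and 54%. After median centring 4 went each way (40%), against 39% and 27.1% of all genes. Gramd1a, a carrier of plasma membrane cholesterol to the endoplasmic reticulum, read 360, 773 and 1992 in knockout cells and 367, 996 and 2358 in wild-type cells. It rose by 1.27 at 1 h (adjusted p = 0.0128) and by 2.58 at 5 h (SE 0.13, adjusted p = 0.000415). Stard3 rose by 1.30. Star, which moves cholesterol into mitochondria, read 62.7, 95.8 and 105 in knockout cells and 70.2, 72.7 and 149 in wild-type cells. Its change was 0.91 (SE 0.24, adjusted p = 0.028). Star exceeded the array median on the 5 h arrays only. It therefore passed the filter, and counts among the 4 called higher, only through the arrays where it is high. The bile acid pathway enzymes Cyp27a1 and Hsd3b7 fell by 2.32 and by 2.04, and Osbpl11, an oxysterol-binding protein relative, fell by 1.71 after a fall by 0.73 at 1 h (adjusted p = 0.0411, and 0.108 after median centring). At 0 h the differences ran from −0.19 for Osbp and −0.16 for Star to 0.31 for Osbpl1a and 0.34 for Cyp27a1.

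Of 10 wider fatty acid genes, 1 was called higher (10%) and 6 lower (60%) at 5 h, against 19.5% and 54% of all genes. After median centring 4 were higher (40%) and 5 lower (50%), against 39% and 27.1% of all genes. Fads1, a fatty acid desaturase, read 1699, 1101 and 51.7 in knockout cells and 1741, 1129 and 69.6 in wild-type cells, and fell by 4.84 (SE 0.15, adjusted p = 0.00032). Lpin1, a phosphatidate phosphatase, fell by 0.60 at 1 h (adjusted p = 0.0432, and 0.124 after median centring) and stood under the floor at 5 h in both genotypes, so its −5.49 is a bound. The elongase Elovl5 fell by 2.35, and Acsl4 rose by 0.38 (adjusted p = 0.035). At 0 h, Gpam stood at −0.42, Agpat3 at −0.30, Elovl1 at 0.03 and Me1 at 0.11 in knockout minus wild type.

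The wider synthesis list had 1 of 7 called higher (14.3%) and 4 lower (57.1%) at 5 h, against 19.5% and 54% of all genes. After median centring 3 were higher (42.9%) and 2 lower (28.6%), against 39% and 27.1% of all genes. Sc5d, a sterol desaturase, read 719, 696 and 1154 in knockout cells and 700, 632 and 1198 in wild-type cells, a rise of 0.73 (SE 0.11, adjusted p = 0.00497). Mbtps1, a protease that cleaves SREBP, read 739, 674 and 188 in knockout cells and 694, 521 and 215 in wild-type cells, and fell by 1.83 (SE 0.17, adjusted p = 0.00134), while its other probe sets past the filter gave −1.39 and 0.02. Tmem97 fell by 1.46, and Dhdds, which draws on farnesyl diphosphate for dolichol, fell by 0.97, a call that was lost after quantile normalization (adjusted p = 0.0571) and median centring (adjusted p = 0.228). Genotype differences at 0 h ran from −0.18 for Tmem97 and −0.09 for Msmo1 to 0.13 for Dhdds and 0.16 for Ggps1.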

How the data were processed

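RNA of 6 macrophage samples was measured on Affymetrix arrays, 1 per genotype and LPS time. The deposited values are intensity on a linear scale, which the authors computed with MAS5, per the submitters' processing notes. Its version and scaling target are not given. Trimming 2% of signals at either end left array means of 499.93 to 499.95, so arrays had been brought to a common mean. The number of arrays limits the precision.

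The 35 genes and all lists were chosen with earlier results of these data known. Control probe sets (64 of 22690) were left out. Of the rest, 20393 probe sets have 1 symbol, 691 several and 1555 none. Signals under 18.29, the 25th percentile, were set to it and log2 taken, which makes changes to or from it bounds. Probe sets had to exceed the array median somewhere, on 1 array or more, and the one with the highest mean stood for its gene. limma 3.58.1 in R 4.3.3 was fitted with genotype and time as additive terms (2 residual degrees of freedom, prior 2.181), and p-values were adjusted by Benjamini-Hochberg. The LPS change is taken as common to both genotypes, so changes and differences on single arrays are values with no test. As nothing says that arrays came from separate animals, p-values measure only the spread between these samples, which may be technical. That spread includes any difference in LPS response between the genotypes.

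Named were all measured genes of the list, from each wider list the 3 largest called rises and falls at each time and the 2 largest genotype differences each way at 0 h, and Nfkbib, Xist and cell type markers as checks. Eif2s3y was added to the checks after the values were seen. Simulated data had 7507 genes, with 100 raised by each fold in 1 comparison at a time and normal noise of each gene's residual scatter. At 2-fold the fit recovered 43% at 1 h, 45% at 5 h and 56% for genotype. At 4-fold it recovered 76%, 69% and 78%, and false calls numbered 3, 4 and 3. In the data 19.5% of genes were called higher and 54% lower at 5 h. The simulated rates therefore do not describe the 5 h calls. Alternatives were quantile normalization, median centring, a floor at the 10th percentile (4.891), log2(signal + 32), no expression filter, the mean of all probe sets, time alone, and leaving out each array. Promoter windows came from RefSeq, matched by symbol, and tables were made with Python 3.11.15 and pandas 2.3.3.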

Additional observations from a re-analysis of the deposited data

How the results depend on the processing

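Of the 25 genes called at 5 h, 14 kept the call and 21 the direction under every alternative run, left-out arrays included. The 14 are Hmgcs1, Idi1 and Ch25h (higher) and Mvd, Ebp, Dhcr7, Abca1, Abcg1, Mylip, Npc1, Stard4, Fasn, Scd1 and Scd2 (lower). Median centring turned Pmvk (0.02), Nsdhl (0.16), Scap (0.05) and Insig2 (0.20) above 0. At 5 h the 6 genes called higher became 10 under median centring, and the 19 called lower became 12 under both quantile normalization and median centring. Over all genes, 26.3% were then higher and 40.7% lower under quantile normalization, and 39% and 27.1% under median centring, against 19.5% and 54%. The synthesis minus efflux median of 0.80 became 1.41 under quantile normalization. Leaving out each array gave 4 to 6 genes higher and 13 to 19 lower, with a median difference of 0.65 to 0.94. The lowest counts came without the wild-type array at 0 h, where 8 of the 25 calls were lost. At 1 h, the 2 genes called higher became 5 under quantile normalization, 4 under median centring and 0 without the expression filter. The 2 called lower became 1 under quantile normalization, 0 under median centring, 0 without the filter and 4 with time alone. Left-out arrays gave 1 to 3 higher and 0 to 1 lower. The 1 h median difference of 0.05 became 0.11 under quantile normalization, 0.17 with the mean of all probe sets, and 0.01 to 0.24 over left-out arrays. Without the filter 12393 genes were tested, and the calls over all genes at 1 h were 148 higher and 103 lower, against 409 and 446. Over left-out arrays those calls numbered 99 to 370 higher and 13 to 363 lower. For knockout minus wild type, 0 of the 31 genes were called under every setting run. The labels carry no replicate numbers; the genotype term already sets LPS arrays against 0 h arrays of their own genotype, and time alone drops it. Leaving out an array leaves 1 time with 1 sample, which is assumed to vary like the others. Causes of these changes were not tested. Signals near the floor, as for Mvk and Tm7sf2 at 5 h, limit what can be read from single arrays.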
